A study of Mus musculus with 32 samples.

Results

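The cytosolic ribosomal protein genes were followed across the cells of the mouse median eminence (ME), the part of the hypothalamus where blood-borne signals reach the brain. The members were the rows of the gene matrix whose symbol begins with Rpl or Rps and a number, together with Rpsa, Rplp0, Rplp1 and Rplp2, without the Rps6k kinases and the rows named as pseudogenes. This gave 87 of 27998 genes. Of these, 77 were core members, 46 of the large and 31 of the small subunit. The other 10 were paralog-like members, whose symbol carries a suffix after the number. They include Rps19bp1, which encodes a binding partner of the Rps19 protein and not a ribosomal protein, and Rpl6l, which the annotation lists as a processed pseudogene.

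The ME was taken from C57B/L6 mice aged 40 to 47 days. A group of 5 mice was fasted overnight for 16 h, and another 5 were fasted in the same way and then given normal chow for 1 h. Material of the 5 animals of a group was combined (before papain dissociation by the labels, while the methods describe separate tubes in papain), and the cells were split into 2 libraries, and droplet single-cell RNA-seq counted unique molecular identifiers (UMIs) at the 3′ end of transcripts. The matrix held 5982 cells with 29288898 UMIs (1533 to 25054 a cell, median 3837) and marked cells only by a barcode number from 1 to 4, which the labels do not tie to a condition. All cells were therefore treated as 1 sample, no comparison of fasted with refed mice was made, and no test was possible.

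A ribosome is an assembly of RNA and proteins in a small and a large subunit, and its proteins are needed in nearly equal numbers, and their genes are expressed in every cell type. The mRNAs of ribosomal proteins typically begin with a short pyrimidine tract, the TOP motif, through which mTORC1 signalling controls their translation.

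The pyrimidine tract can be seen in the genome around the annotated start of transcription. For 9 members on which later results turn, 30 bases around the start were taken from the RefSeq promoter table on GRCm38.p6 and are given 5′ to 3′ on the strand of the gene. Capitals mark the longest run of C and T that touches the 21 bases centred on the start. Rpl13, Rps26, Rps27 and Rpl22 encode core proteins. Rpl22l1 is the paralog of Rpl22, and Rps27l that of Rps27. Rpl41 has the most UMIs, and Rps19bp1 and Rpl7l1 follow the other members least.
Rps26 (chr10:128626492-128626521, minus): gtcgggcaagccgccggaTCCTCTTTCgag
Rps27 (chr3:90213634-90213663, minus): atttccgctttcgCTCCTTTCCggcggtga
Rps27l (chr9:66946071-66946100, plus): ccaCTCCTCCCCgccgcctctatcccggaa
Rpl22 (chr4:152325711-152325740, plus): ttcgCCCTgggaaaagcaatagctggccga
Rpl22l1 (chr3:28805493-28805522, plus): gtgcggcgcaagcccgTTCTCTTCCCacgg
Rpl13 (chr8:123102335-123102364, plus): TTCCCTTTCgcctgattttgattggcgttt
Rpl41 (chr10:128549154-128549183, minus): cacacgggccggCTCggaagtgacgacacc
Rps19bp1 (chr15:80264292-80264321, minus): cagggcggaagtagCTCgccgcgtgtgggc
Rpl7l1 (chr17:46782642-46782671, minus): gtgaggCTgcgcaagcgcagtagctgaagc

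Rps26, Rps27 and Rps27l each held a run of 9 pyrimidines and Rpl22l1 a run of 10, against 4 in Rpl22, 3 in Rpl41 and Rps19bp1 and 2 in Rpl7l1. The run of Rpl13 was 10 bases long, of which the printed window holds the last 9, and ended upstream of the annotated start, and too little of it lay within the 21 bases to meet the criterion that follows. The runs of Rps27l, Rpl22, Rpl41 and Rpl7l1 also ended upstream of the annotated start. The criterion was a C within those 21 bases that opens at least 6 pyrimidines in a row, also inside a longer run. Over all members with an entry it was met in 32 of 66 (48.5%), against 3597 of 18588 promoters in the table (19.4%). It was met in 28 of 57 core members and in 4 of 9 paralog-like members. Only the strand of the gene was searched, and an annotated start can lie several bases from the one in use. The other 21 members had no entry.

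Of the 87 members, 85 were detected and 84 had at least 1000 UMIs. Rpl3l and Rpl10l, paralogs known from muscle and testis, had 0 UMIs, which allows up to 0.102 counts per 1000000 UMIs (CPM) over all cells. Rpl39l, a further paralog known from testis, had 13 UMIs. The members took 2202820 UMIs, or 7.52% of all. Rpl41 had the most UMIs of any member (89696), followed by Rps27, Rps29, Rps14 and Rpl13. These 5 genes held 14.5% of the member UMIs, and Rpl22 had the fewest among the core members (6530). Each transcript is counted once whatever its length, and many members share sequence with processed copies. Of 87 members, 58 had a window of 76 bases, the length of the cDNA read, within the last 400 bases of their transcript that also occurs in another gene, and in 31 members this was so for over 50% of the windows. The 16 rows named as ribosomal protein pseudogenes held 37080 UMIs, equal to 1.68% of the member UMIs.

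The cells were clustered without the member genes, so that the members did not define the groups in which they were measured. Markers named all but 3 of 24 clusters, which gave 13 types with 5535 cells. The summed markers of each list were highest in their own type except in 1. This was the neuron list (Syt1, Snap25 and others), which reached 12288 CPM in pars tuberalis-like cells and 9379 in neuron-like cells, with 5 of 7 genes highest in the latter. The OPC list was highest in its own type in 5 of 6 genes and the tanycyte list in 7 of 8. Microglia markers also reached 7568 CPM in macrophage-like cells, which were led by Cd74 and Lyz2, genes of antigen-presenting and phagocytic cells. Haemoglobin genes were among the leading genes of some clusters, yet the list took only 13.01 to 27.1 CPM over the types. Scrublet called 50 cells (0.836%) as doublets, which were kept, 3 cells rich in haemoglobin were left out of the types, and 21 barcodes occurred under more than 1 barcode number. The 4 barcode numbers held 1359 to 1642 cells and 6508038 to 7806887 UMIs.

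The share of UMIs that came from ribosomal protein genes differed 6.41-fold between the types at the ends of the order. Every cell was thinned to 1000 UMIs, so that shares were compared at an equal number of UMIs. Thinning does not take away a tie between the share of a cell and its full depth. Macrophage-like cells had the highest share, 14.8% (95% exact binomial interval 14.64 to 15.03, 128 cells), and astrocyte-like cells the lowest, 2.31% (2.29 to 2.34, 1418 cells). Intervals cover counting error only, and UMIs of the same cell are not independent. Between these ends, a group of types stood close together above 10%, a second group lay from 5.48% to 7.83%, and mature oligodendrocyte (MOL)-like cells were near the bottom with 3.44% (666 cells).

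**Figure D1:**
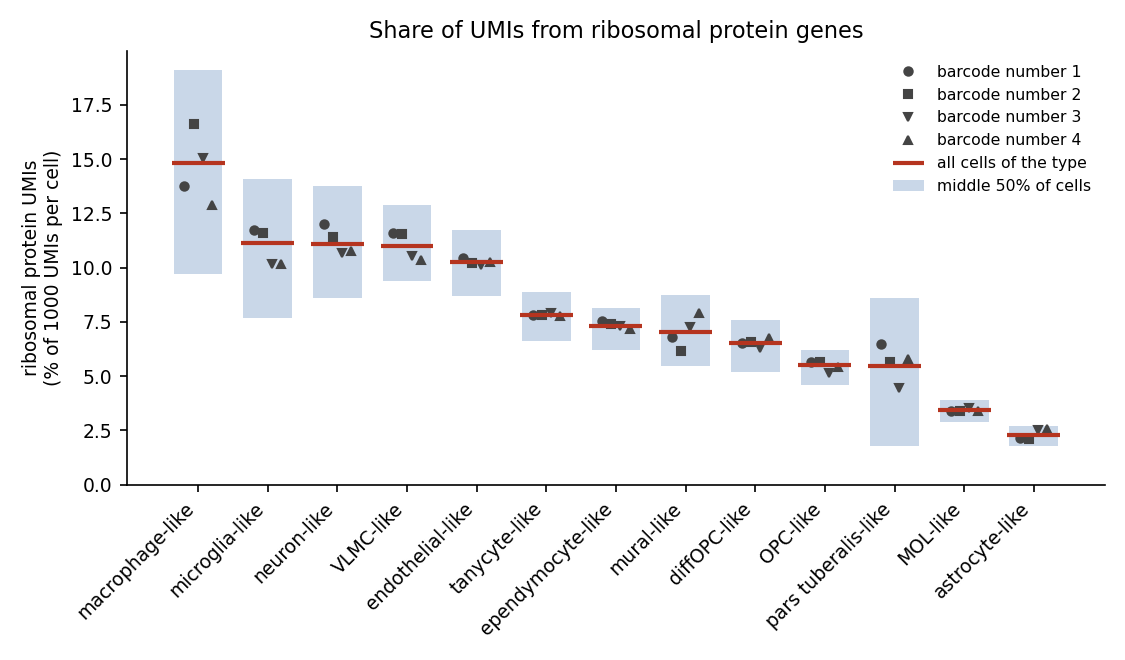
Share of UMIs from ribosomal protein genes in the 13 types, in percent of 1000 UMIs a cell. Red lines give all cells of a type, blue bars the middle 50% of its cells and symbols the 4 barcode numbers. Macrophage-like cells lie at 14.8% and astrocyte-like cells at 2.31%, and the blue bar of pars tuberalis-like cells runs from 1.80% to 8.60%.

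In macrophage-like cells, the perivascular phagocytes marked by Mrc1 and Pf4, the share was 13.8%, 16.6%, 15.1% and 12.9% in barcode numbers 1 to 4. In microglia-like cells, the resident phagocytes of brain tissue, it was 11.7%, 11.6%, 10.2% and 10.2%. The lowest macrophage-like value lay above the highest microglia-like value. Microglia-like (11.1%, 406 cells), neuron-like (11.1%, 507 cells) and vascular and leptomeningeal cell (VLMC)-like cells (11.01%, 268 cells) could not be ordered by this share. Their ranges over barcode numbers overlapped. Endothelial-like cells followed with 10.3% (84 cells), and their range of 10.1% to 10.5% overlapped with that of VLMC-like cells, although VLMC-like cells had the higher share within each of the 4 barcode numbers.

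Tanycyte-like cells, which line the floor of the ventricle, had 7.83% (1255 cells), with 7.78% to 7.93% over the barcode numbers. This range lay below that of endothelial-like cells and above that of the ciliated ependymocyte-like cells (7.18% to 7.52%, 200 cells). Mural-like cells had 7.03% (75 cells), with a range of 6.15% to 7.89% that spanned the ependymocyte-like one. Differentiating oligodendrocyte progenitor (diffOPC)-like cells had 6.53% (129 cells), and their range overlapped with the mural-like one. Oligodendrocyte progenitor cell (OPC)-like cells had 5.51% (311 cells) and pars tuberalis-like cells, the endocrine cells that border the ME, 5.48% (88 cells), with ranges that overlapped each other. The ranges of MOL-like cells (3.39% to 3.53%) and of astrocyte-like cells (2.13% to 2.55%) lay apart from each other and below all others.

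Within a type, single cells differed by several percentage points. The middle 50% of macrophage-like cells lay between 9.70% and 19.1%, whereas that of astrocyte-like cells lay between 1.80% and 2.70%. Pars tuberalis-like cells were the most spread relative to their level. There the share before thinning went with depth (Pearson's r = 0.63 with the log of UMIs, over 88 cells of 1 sample) and against the mitochondrial share (r = -0.67). At a Leiden resolution of 0.5 or with the members kept in the clustering, the type also took in a cluster of 41 cells led by Mgp and Fxyd5, and its share was 8.42% and 8.46%. At a resolution of 2 it held only 32 cells, with 8.30%. A separate cluster of 57 cells led by Pomc, Cga and Snhg11 was then named neuron-like. The pars tuberalis-like type may thus be a mix of cells, and its share and spread may not be those of endocrine cells alone. The part of depth and cell quality in the pars tuberalis-like value was not tested.

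Neuron-like cells were the deepest, with a median of 13424 UMIs, and their clusters differed. The cluster led by Agrp and Npy, peptides of hunger neurons, had 13.7% (65 cells), the cluster led by Sst 11.1% (366 cells) and the cluster led by Scg2, Avp and Vip 9.13% (76 cells). Their ranges over the barcode numbers were 13.3% to 14.2%, 10.4% to 12.3% and 8.78% to 9.46%, so none of them overlapped. In the Agrp cluster the share went with depth (r = 0.65 over 65 cells) and against the mitochondrial share (r = -0.75), and the part of either was not tested. Only 28 neuron-like cells had 3000 to 6000 UMIs, and their mean share was 8.33%, so the neuron-like value rests on deep cells. Within microglia-like cells, a cluster of 48 cells had 13.6%, and its range of 9.95% to 15.2% included the value of the type as a whole. The low end was barcode number 3 with only 2 cells. Numbers 1, 2 and 4 had 15.2% (19 cells), 13.1% (22 cells) and 11.7% (5 cells). The 12 astrocyte-like cells of the Gfap and Myoc cluster had 4.30%.

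The 3 unnamed clusters are given by their leading genes. The cluster led by Ccl5 and Cd52, genes of lymphocytes and other leukocytes, had the highest share of any group, 25.1% (19 cells). The cluster led by Mgp and Fxyd5 had 14.7% (38 cells), and the cluster led by Mt3 and Mia had 6.997% (387 cells), near the tanycyte-like value.

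The order of types was borne by most members. Of the 84 members with at least 1000 UMIs, 66 had their highest CPM in macrophage-like cells and 78 their lowest in astrocyte-like cells. Another 10 were highest in neuron-like cells, among them Rpl3 and Rpl22l1. The ratio of macrophage-like to astrocyte-like CPM had a median of 6.44 over members and exceeded 5 in 63 of 84. It was highest for Rps29, a protein of the small subunit, at 15.3, and lowest for Rps19bp1, at 0.903. Rps29 was at 7008 to 7695 CPM in the 4 barcode numbers of macrophage-like cells, while microglia-like cells held 4685 to 5840 CPM and astrocyte-like cells 459 to 522 CPM. Rps19bp1 was at 56.9 CPM in macrophage-like and 63.1 CPM in astrocyte-like cells, so it did not follow the ribosomal proteins.

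**Figure D2:**
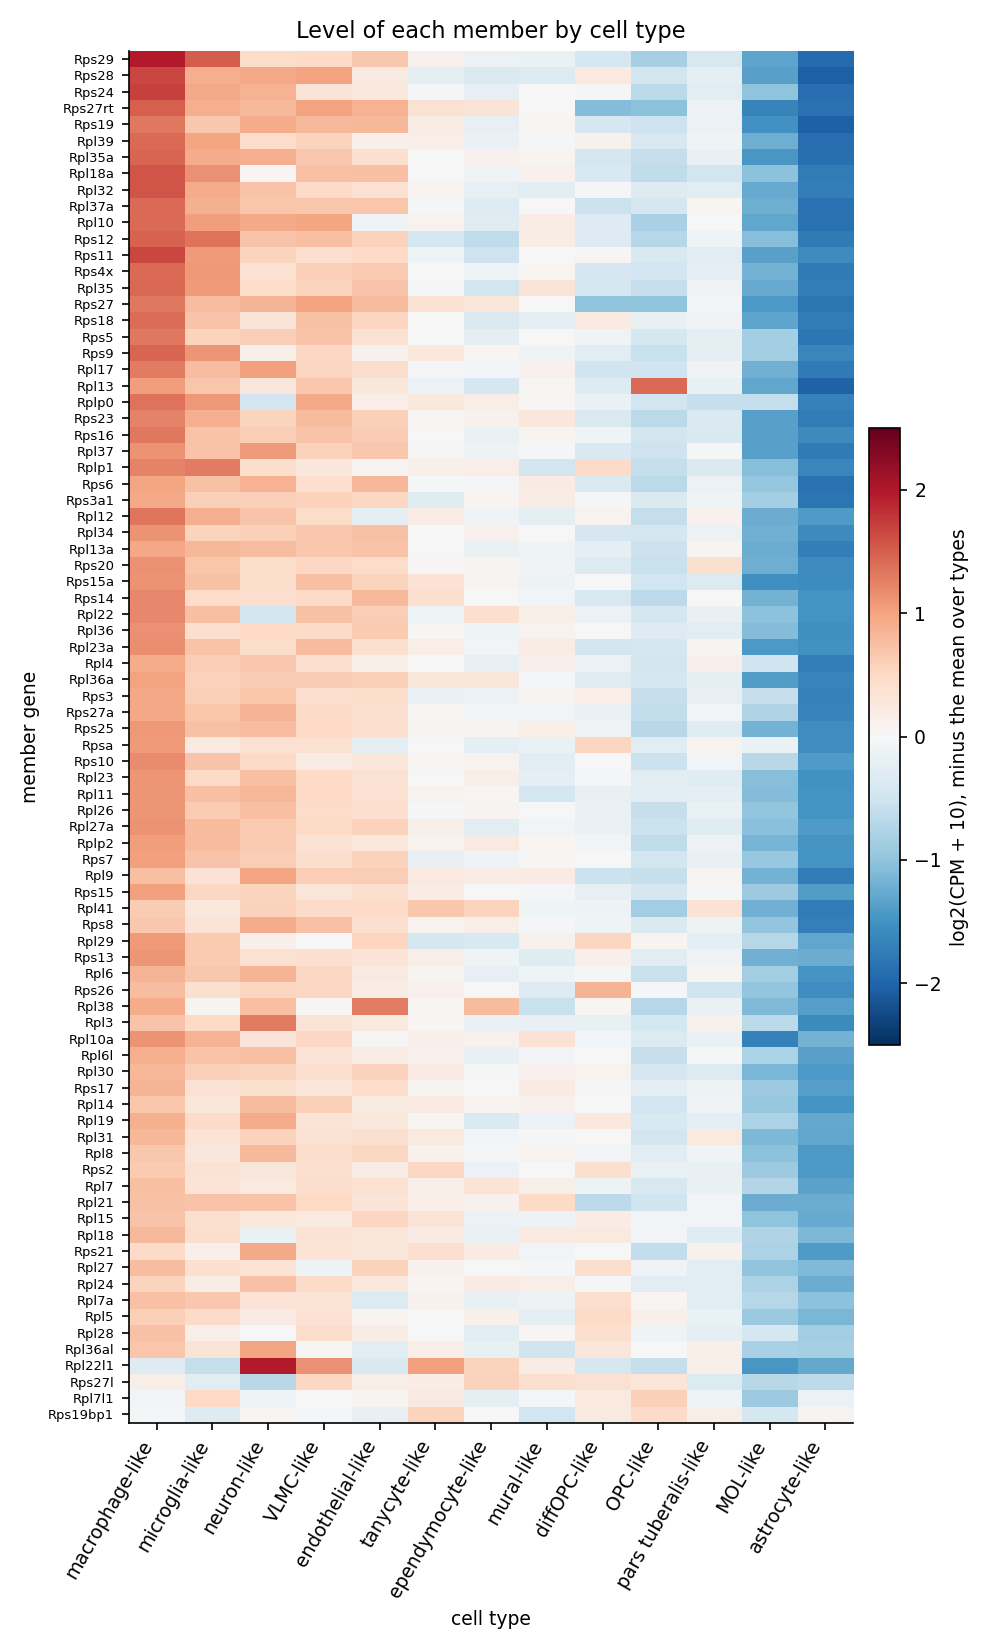
Level of the 84 members with at least 1000 UMIs in the 13 types, as log2 of CPM + 10 minus the mean of the gene over types, ordered by the difference between macrophage-like and astrocyte-like cells. Most rows run from red on the left to blue on the right, while Rpl13 is red in OPC-like cells (4379 to 5095 CPM) and Rpl22l1 is red in neuron-like cells (2433 to 2660 CPM).

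Each type was also set against all other typed cells, and a gene was counted when CPM + 10 differed 1.5-fold or more. The reference thus differs between types. Neuron-like cells, for example, are part of the reference of VLMC-like cells but not of their own. Counts are therefore to be read against all genes of the same contrast, not against those of another type. In macrophage-like cells 74 of 84 members were higher (11.2% of 13819 genes were), and in microglia-like cells 56 of 84 (12.1% of all genes). In VLMC-like cells 31 of 84 members were higher (11.1% of all genes), in endothelial-like cells 23 of 84 (14.9%) and in neuron-like cells 64 of 84 (18.9%). In MOL-like cells 80 of 84 members were lower (37.4% of all genes), and in astrocyte-like cells 81 of 84 (26.5%). The 3 members that did not pass in astrocyte-like cells were Rps27l, Rps19bp1 and Rpl7l1, all paralog-like. In MOL-like cells Rplp0, Rpl28, Rps27l and Rpsa did not pass. In macrophage-like cells Rpl22l1, a paralog of Rpl22, was lower by 1.5-fold or more, at 501 CPM against 1105 CPM.

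At 1000 UMIs a cell, the share of ribosomal protein UMIs among lineage cells clustered on their own was 5.51% in OPC-like (309 cells), 6.35% in diffOPC-like (139 cells) and 3.44% in MOL-like cells (658 cells). OPC-like cells are the precursors marked by Pdgfra, diffOPC-like cells are marked by Bmp4 and Fyn, and MOL-like cells are those that hold myelin. The diffOPC-like share was 6.36%, 6.48%, 6.05% and 6.57% in the 4 barcode numbers. The OPC-like share was 5.64%, 5.66%, 5.16% and 5.42%, and the MOL-like share 3.42%, 3.41%, 3.53% and 3.38%. The 3 stages did not overlap. The diffOPC-like share was 1.15 times the OPC-like and 1.85 times the MOL-like share. Median depth was 4025, 8918 and 6140 UMIs a cell in the 3 stages.

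Against OPC-like cells, diffOPC-like cells had 8 of 84 members higher (11.4% of 7030 genes were) and 1 lower (24.1% of all genes). The median of the members was 0.25 on the log2 scale, against -0.17 over all genes. The members that were higher were Rplp1 (0.99), Rps26 (0.82), Rpsa (0.75), Rpl41 (0.69), Rpl38, Rps3, Rpl12 and Rps28. Per total UMIs the share of members called higher was thus close to the background, while 71 of 84 members lay above 0. The count depends on the scale. Scaled by median of ratios, 37 members were higher (18.6% of all genes) and 1 lower (14.8% of all genes), with a median of 0.56 against 0.10 over all genes. With edgeR's TMM factors 38 were higher (19.3% of all genes) and 1 lower (15% of all genes).

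From diffOPC-like to MOL-like cells, 73 of 84 members were lower (30.3% of 8111 genes were) and 0 higher (12.7% of all genes), with a median of -0.87 against -0.28 over all genes. The largest differences were those of Rps26 (-1.79), Rpl10a (-1.55), Rps28 (-1.52) and Rplp1 (-1.47). Rps26, a small-subunit protein at the channel where mRNA leaves, was at 505, 899 and 253 CPM in OPC-like, diffOPC-like and MOL-like cells. Rplp1, a protein of the stalk that recruits elongation factors, was at 576, 1156 and 412 CPM in the same order. Scaled by median of ratios, 19 members were lower (14.5% of all genes) and 0 higher (21.9% of all genes), with a median of -0.39 against 0.08 over all genes. TMM gave 19 lower (14.8% of all genes) and 0 higher (22.6% of all genes).

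Between the ends of the lineage the direction of the list was set by the scale. Per total UMIs, MOL-like cells had 49 of 84 members lower than OPC-like cells (44.1% of 8661 genes were lower) and 0 higher (11.7% of all genes), with a median of -0.67 against -0.49 over all genes. Scaled by median of ratios, 7 members were higher (25.4% of all genes) and 3 lower (17.4% of all genes), with a median of 0.10 against 0.12 over all genes. TMM gave 8 higher (26.4% of all genes) and 3 lower (17.6% of all genes), with a median of 0.11 against 0.13. Rpsa (0.10) and Rps3 (0.03) were the only members above 0 per total UMIs.

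**Figure D3:**
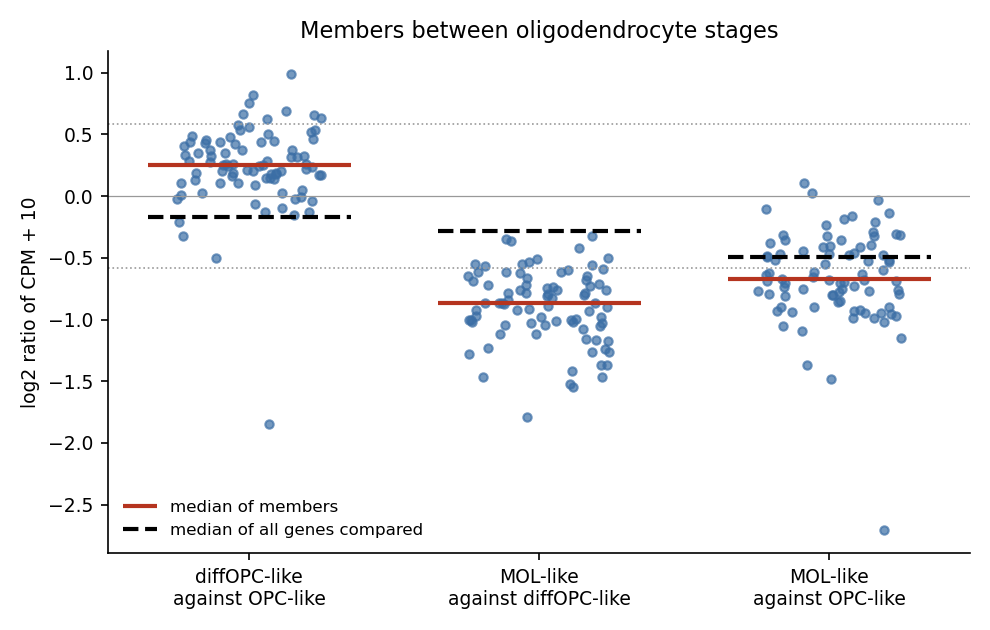
Log2 ratio of CPM + 10 of the 84 members in the 3 pairs of oligodendrocyte stages, scaled to total UMIs. Red lines give the median of the members (0.25, -0.87 and -0.67), dashed lines the median of all genes compared (-0.17, -0.28 and -0.49), and dotted lines 1.5-fold. The lowest point of the first and of the last group is Rpl13 (-1.84 and -2.71).

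Rpl13 was the exception among the core members. It lies at chr8:123102350-123105244 on the plus strand of mm10 and encodes a protein of the large subunit. In OPC-like cells it was at 5092, 5095, 4379 and 4875 CPM in barcode numbers 1 to 4. The diffOPC-like values were 1253 to 1661 CPM and the MOL-like values 690 to 792 CPM, with no overlap between any of these groups. It took 882 of every 10000 member UMIs in OPC-like cells, against a median of 221 over types and 273 in the next highest type. A typical OPC-like cell held 5 Rpl13 UMIs in 1000, with 3 to 7 in the middle 50%, against 1 in diffOPC-like and MOL-like cells. Of 311 OPC-like cells, 161 (51.8%) held at least 5, compared with 7 of 129 diffOPC-like cells (5.43%) and 0 of 1418 astrocyte-like cells, which allows up to 0.212%.

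Between stages Rpl13 differed by -1.84 on the log2 scale from OPC-like to diffOPC-like cells (counting SE 0.04) and by -0.86 from diffOPC-like to MOL-like cells. Without Rpl13, the OPC-like share was 5.01% and the diffOPC-like share 6.21%. The large-to-small ratio of core member UMIs was 1.68 in OPC-like cells, the highest of the 13 types, and 1.23 in macrophage-like cells, the lowest. This ratio includes Rpl13, which alone took 882 of 10000 member UMIs in OPC-like cells. It was not taken without Rpl13, so it need not hold for the large subunit as a whole. Rpl13 shares reads with processed copies, since 87.1% of its 76-base windows near the 3′ end occur in another gene. The copy Rpl13-ps3 was at 396, 101 and 34.7 CPM in OPC-like, diffOPC-like and astrocyte-like cells, and so moved with Rpl13. The readthrough gene Gm20388, which overlaps Rpl13 on the same strand, had 0 UMIs in the typed cells.

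Rpl22 and Rpl22l1 differed in opposite ways between neuron-like and macrophage-like or microglia-like cells. Rpl22l1, the paralog of Rpl22, was at 2660, 2632, 2443 and 2433 CPM in the 4 barcode numbers of neuron-like cells and at 400 to 429 CPM in microglia-like cells. Rpl22 was at 192, 459 and 631 CPM in neuron-like, microglia-like and macrophage-like cells. The ratio of Rpl22l1 to Rpl22 UMIs was 13.1 in neuron-like cells, 5.19 in tanycyte-like cells and 3.08 in VLMC-like cells. It was 0.794 in macrophage-like and 0.895 in microglia-like cells, the only types with more Rpl22 than Rpl22l1. As part of the ribosomal protein UMIs, Rpl22l1 took 218 of 10000 in neuron-like cells and 31.1 in macrophage-like cells. None of the 76-base windows of Rpl22 was shared with another gene, and 47.7% of those of Rpl22l1 were.

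**Figure D4:**
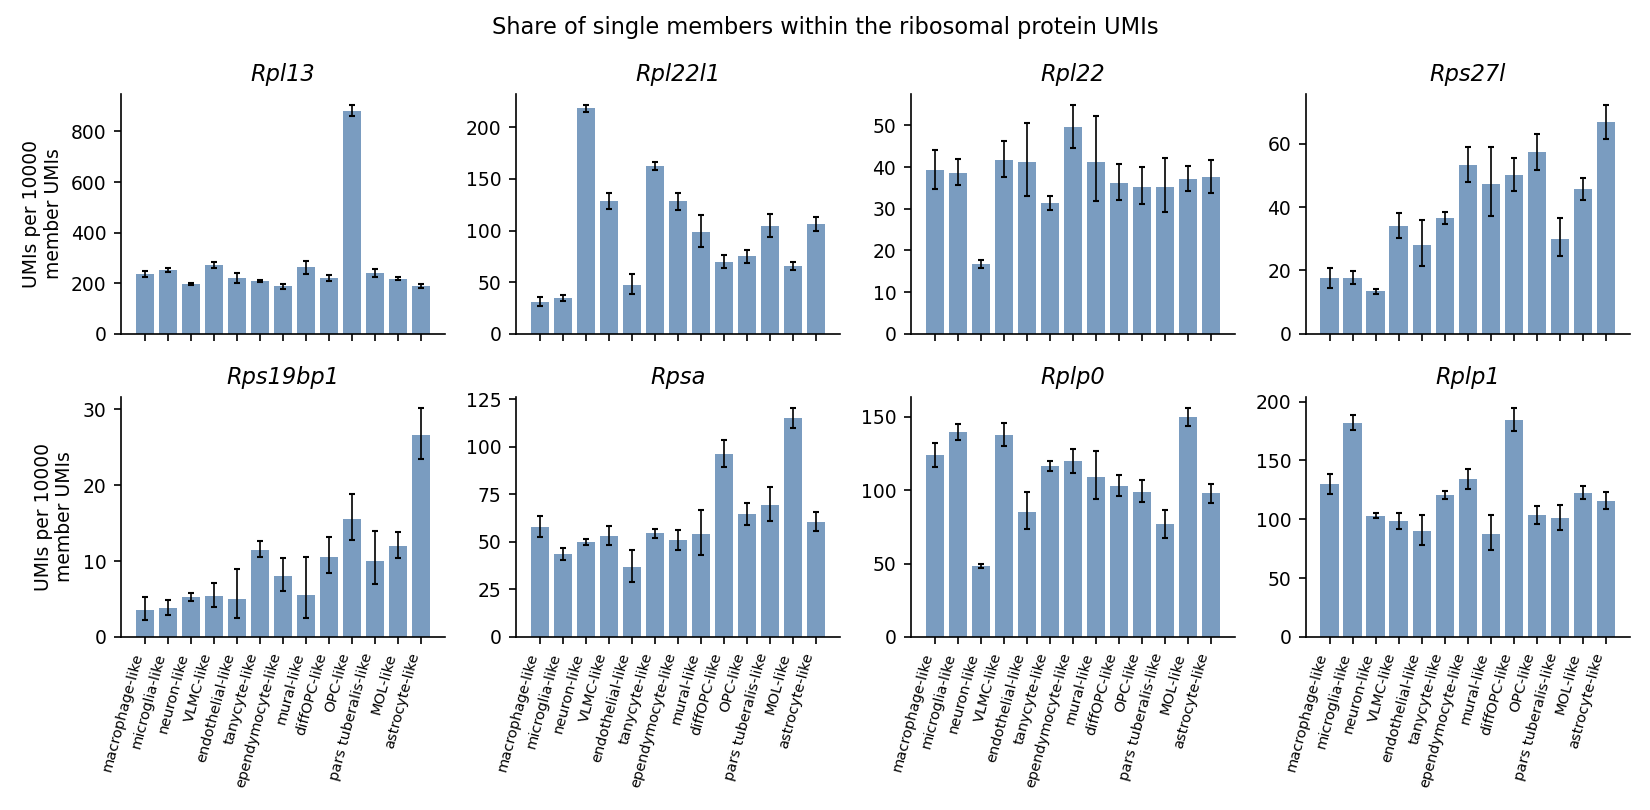
UMIs of 8 members per 10000 ribosomal protein UMIs in the 13 types, with 95% exact Poisson intervals for counting error. Rpl13 stands out in OPC-like cells (882), Rpl22l1 is highest in neuron-like cells (218), where Rpl22 is lowest (16.7), and Rps19bp1 and Rps27l are highest in astrocyte-like cells (26.6 and 66.7).

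The other paralog-like members fell into those that followed their partner and those that did not. Rps27l, the paralog of Rps27, took 66.7 of 10000 member UMIs in astrocyte-like and 13.4 in neuron-like cells, and its ratio to Rps27 ran from 0.0407 in neuron-like to 0.319 in diffOPC-like cells. The level of Rps27l was close in both types, at 158 CPM in astrocyte-like and 155 CPM in neuron-like cells, and it was 316 to 348 CPM in diffOPC-like cells. Rps27 was at 967 to 1155 CPM in diffOPC-like cells and at 3575 to 4188 CPM in neuron-like cells. Rpl36al, the paralog of Rpl36a, ran from 0.309 of its partner in endothelial-like to 1.03 in astrocyte-like cells, and Rpl7l1, the paralog of Rpl7, from 0.0713 in macrophage-like to 0.293 in astrocyte-like cells. These ratios are uncertain, since 71.4% of the windows of Rps27, 100% of those of Rpl36a, 76% of those of Rpl36al and 79.7% of those of Rpl7 are shared with another gene.

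Rps27rt, a retrotransposed copy of Rps27, stayed between 0.293 and 0.402 of Rps27 in all types, and Rpl6l between 0.164 and 0.195 of Rpl6. Both share most of their sequence near the 3′ end with another gene (90.3% and 85.8% of windows), so their counts and those of their partners are uncertain.

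Among core members the make-up of the ribosomal protein UMIs varied less. The log2 range over types, from the lowest to the highest share of member UMIs, had a median of 0.76 over the 77 core members and 2.31 over the 7 paralog-like members with at least 1000 UMIs, and 24 core members had a range of 1 or more. The narrowest were Rpl26 (0.31), Rpl13a (0.39) and Rpl23 (0.42). Beside Rpl13 the widest core members were Rpsa, Rplp0 and Rpl22.

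Rpsa, a small-subunit protein that is also known as the laminin receptor, took 115 of 10000 member UMIs in MOL-like, 96.2 in diffOPC-like and 36.6 in endothelial-like cells. Its level was 374 to 399 CPM in MOL-like and 348 to 369 CPM in OPC-like cells. Per total UMIs, Rpsa was thus not lower in MOL-like than in OPC-like cells (0.10 on the log2 scale). By 1.5-fold or more, 49 of 84 members were lower on that scale (44.1% of all genes). Scaled by median of ratios, only 3 members were lower (17.4% of all genes), so this count depends on the scale. A change of scale moves all members by about the same amount. The place of Rpsa above the median of the members (0.10 against -0.67 per total UMIs) therefore hardly depends on it. Rplp0, the base of the stalk, took 150 of 10000 in MOL-like and 48.3 in neuron-like cells. The proteins that bind to it differed less on this scale. Rplp1 took 122 of 10000 in MOL-like and 103 in neuron-like cells, and Rplp2 took 112 and 119. In CPM, Rplp0 was at 509 in MOL-like and 556 in neuron-like cells, so its contrast between these types is one of make-up and not of level.

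Other genes of translation were set beside the members. The 6 elongation factors ran from 1115 CPM in astrocyte-like to 4196 CPM in neuron-like cells, and the 26 initiation factors from 4207 to 9074 CPM in the same types. The 6 other TOP mRNAs found in the matrix were likewise lowest in astrocyte-like cells (653 CPM) and highest in macrophage-like cells (2488 CPM). The 78 mitochondrial ribosomal protein genes varied only 1.83-fold, from 4488 CPM in microglia-like to 8196 CPM in neuron-like cells. The 26 genes of ribosome biogenesis were highest in diffOPC-like (2166 CPM) and lowest in MOL-like cells (934 CPM).

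**Figure D5:**
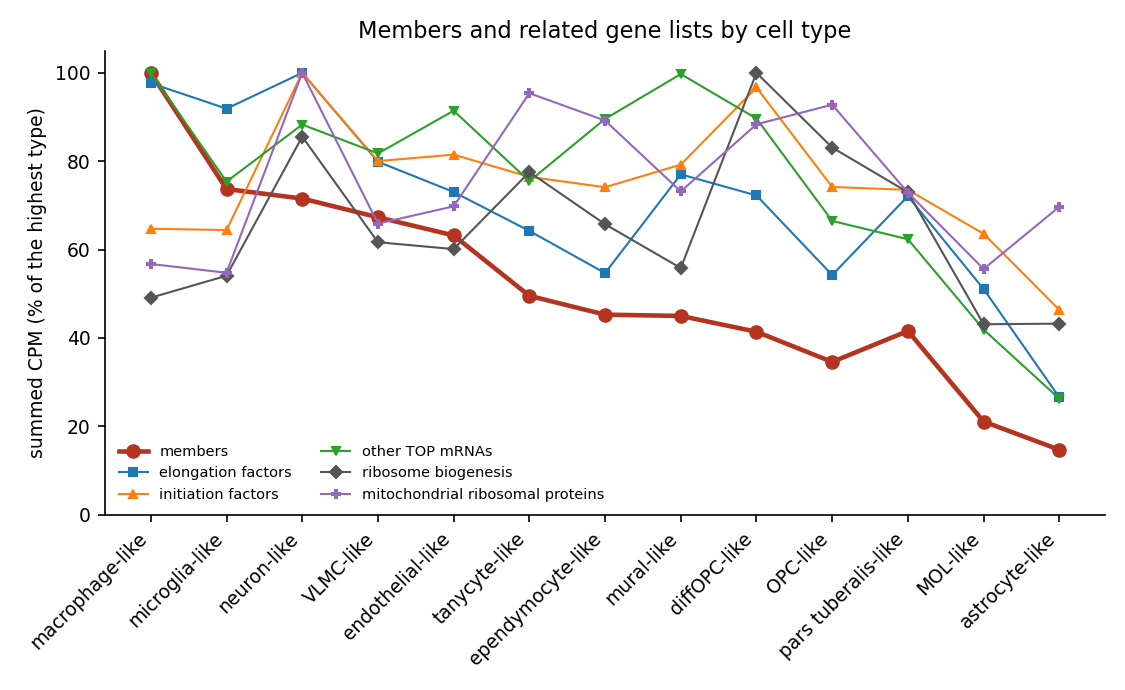
Summed CPM of the members and of 5 related gene lists in the 13 types, in percent of the highest type of each list. The members fall from 161023 CPM in macrophage-like to 23686 CPM in astrocyte-like cells, and mitochondrial ribosomal proteins, with 4488 to 8196 CPM, do not follow that order.

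The counts of these lists along the lineage are per total UMIs only. In MOL-like against diffOPC-like cells, 18 of 23 ribosome biogenesis genes were lower (30.3% of all genes) and 0 higher (12.7% of all genes). Nhp2 was the lowest (-2.22). In the same contrast 30 of 76 mitochondrial ribosomal protein genes and 11 of 26 initiation factors were lower, shares nearer to that of all genes, and 1 initiation factor, Eif4h (0.99), was higher. Of the genes of mTORC1 and translation control, 2 of 8 were lower in diffOPC-like than in OPC-like cells (24.1% of all genes). In MOL-like against diffOPC-like cells, 4 of 10 were lower (30.3% of all genes) and 1, Tsc1 (0.68), was higher (12.7% of all genes). In MOL-like against OPC-like cells, 4 of 11 were lower (44.1% of all genes). The shares of this list were near or below those of all genes in the first and the last contrast. The genes of the immediate early response, which dissociation can induce, also moved with stage. Of these, 6 of 7 were lower in diffOPC-like than in OPC-like cells (24.1% of all genes), with a median of -1.90 against -0.17 over all genes. The part of the immediate early response in the stage differences of the members was not tested. Immediate early genes ran from 131 CPM in diffOPC-like to 6451 CPM in pars tuberalis-like cells.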

How the data were processed

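The authors deposited 1 table of UMI counts for all cells, made with Cell Ranger 2.0 on mm10, as their processing notes and the labels state, in which fasted and refed cells are pooled and no column names a sample. Counts were used as deposited. Gene symbols were matched for 27645 of 27998 identifiers and positions taken from GENCODE M21. The members and lists were chosen with earlier results of these data known. Cells were clustered with scanpy 1.11.5 (2000 variable genes without members, 30 principal components, 15 neighbours, Leiden resolution 1) and named from marker lists. Oligodendrocyte lineage cells were clustered again alone. Shares were taken after thinning each cell to 1000 UMIs, and levels are summed counts per 1000000 UMIs (CPM). Contrasts used log2 of CPM + 10, genes with at least 50 UMIs over both groups and a threshold of 1.5-fold. With 1 sample, no p-value was computed, and exact intervals cover counting error only. Barcode numbers were used as a description. Scripts were tested on simulated data. Alternative scaling used edgeR 4.0.16, Python was 3.11.15 and R 4.3.3. Named members were all paralog-like ones, the P stalk and Rpsa, the 6 widest and 3 narrowest in composition, the 4 largest rises and falls between stages and the 5 with most UMIs. Some others are named where a count or an extreme turned on them, chosen after their values were seen. A list of further ribosomal protein genes is not reported here.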

Additional observations from a re-analysis of the deposited data

Results flagged for a closer look

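In MOL-like cells the share of ribosomal protein UMIs was 3.41%, 3.41%, 3.53% and 3.39% in barcode numbers 1 to 4, and number 3 (3.53%) stood apart from the others by Dixon's criterion. Shares of 13 types and 3 stages were examined, of which chance flags about 1 in 20.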

How the results depend on the processing

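The order of the 13 types held in 92.3% to 100% of the pairs compared under each alternative for depth, denominator, member list, clustering, doublets, cell filter and barcode number, and that of the 3 stages in all. K-means gave only 5 of the types. Leaving out Rpl13, and taking stages from the clustering of all cells, were chosen after seeing the data. With 2-fold in place of 1.5-fold, 0 members were higher in diffOPC-like than in OPC-like cells, and 29 and 7 were lower in MOL-like than in diffOPC-like and OPC-like cells. Higher members then numbered 48 in macrophage-like, 12 in microglia-like, 2 in VLMC-like, 1 in endothelial-like and 28 in neuron-like cells. The share of all genes past 2-fold was not taken, so these counts cannot be read as above or below a background. Median-of-ratios scaling gave 37 higher in diffOPC-like than in OPC-like cells, 19 lower in MOL-like than in diffOPC-like cells, and 7 higher and 3 lower in MOL-like than in OPC-like cells. TMM gave 38, 19, 8 and 3. The last median turned to 0.10 and 0.11, while that of all genes went from -0.49 to 0.12 and 0.13, so it is the scale that sets this direction. Thinned to 1000 UMIs, 13 members were higher in diffOPC-like than in OPC-like cells, again without a share of all genes. Leaving out a barcode number gave 1 to 2 members lower there, with 2 when number 2 was left out. No paired analysis was possible because no column can be tied to a replicate number of the labels and no test was made. Depth limits Rpl39l, Rpl3l and Rpl10l, and types under 100 cells.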

Other observations

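The labels do not tie barcode numbers to conditions, so these are values without a group. In astrocyte-like cells the share was 2.16% and 2.13% in numbers 1 and 2 and 2.503% and 2.555% in numbers 3 and 4. In microglia-like cells it was 11.7% and 11.6%, then 10.2% and 10.2%, and in VLMC-like cells 11.6% and 11.5%, then 10.5% and 10.3%. Numbers 1 and 2 did not overlap with numbers 3 and 4 in 7 of 13 types, above them in 5 (microglia-like, VLMC-like, neuron-like, ependymocyte-like and OPC-like) and below them in 2 (mural-like and astrocyte-like). In the other 6 types they overlapped. With only 2 values on each side, such a separation often arises by chance. Other ways of pairing the numbers were not counted, so this count does not show a split between pairs of libraries. Median depth in astrocyte-like cells was 2658, 2581, 2713 and 2726 UMIs.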
